A study of Mus musculus with 12 samples.

Results

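The comparison covers 6 of the 12 libraries of the series, the 3 titled ISRIB treated M1 and the 3 titled ISRIB treated M0, chosen by their titles alone. The cells were mouse bone marrow-derived macrophages, grown from bone marrow for 6 days in M-CSF, the growth factor of the macrophage lineage, at 10 ng/ml. On day 6 both groups were given the small molecule ISRIB at 50 nM for 1 h. For the next 16 h the M1 group received LPS (10 ng/ml) together with IFN-γ (25 ng/ml), with ISRIB kept in the medium. The M0 group is the unpolarized counterpart, and the labels do not spell out what it received during those 16 h. The other 6 libraries, 3 vehicle M0 and 3 vehicle M1, had DMSO in place of ISRIB and enter here for the shared estimate of the spread and for the test of a difference in response. The labels name biological replicates and do not say whether they came from separate animals, so the p-values measure the spread between these libraries. They also give no strain, sex or age of the animals.

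LPS is a component of bacterial outer membranes and is sensed by Toll-like receptor 4, which activates NF-kB and, through interferon beta, a second wave of interferon signalling. IFN-γ acts through JAK kinases and STAT transcription factors, and the pair together drive the M1-like programme of antimicrobial effectors, antigen presentation and cytokines. ISRIB stabilizes eIF2B, the exchange factor that recharges the translation initiation factor eIF2. It thereby blunts the integrated stress response, in which phosphorylated eIF2 lowers protein synthesis and favours translation of the transcription factor ATF4. The title of the series places that pathway in macrophage inflammation, and the question here is which groups of genes polarize while the inhibitor is present.

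The promoters of 4 genes described below are shown. Each gene belongs to the antiviral or the GTPase list, was called higher and carries the core of the interferon response element. Among such genes these had the most counts in ISRIB M1. That core is the site read by interferon-activated complexes and other IRF proteins. Each run holds the 250 bases before the RefSeq start of the gene in build GRCm38.p6, written 5′ to 3′ on the strand of the gene, with each match in capitals. The positions are chr12:26456453-26456702 on the minus strand for Rsad2, and on the plus strand chr3:142620413-142620662 for Gbp2, chr3:142530086-142530335 for Gbp7 and chr19:34640639-34640888 for Ifit1.
Rsad2: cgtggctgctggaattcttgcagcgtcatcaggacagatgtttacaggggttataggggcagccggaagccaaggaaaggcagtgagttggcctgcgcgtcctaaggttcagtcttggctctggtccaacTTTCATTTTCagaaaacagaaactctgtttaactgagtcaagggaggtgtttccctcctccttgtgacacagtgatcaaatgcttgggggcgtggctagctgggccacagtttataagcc
Gbp2: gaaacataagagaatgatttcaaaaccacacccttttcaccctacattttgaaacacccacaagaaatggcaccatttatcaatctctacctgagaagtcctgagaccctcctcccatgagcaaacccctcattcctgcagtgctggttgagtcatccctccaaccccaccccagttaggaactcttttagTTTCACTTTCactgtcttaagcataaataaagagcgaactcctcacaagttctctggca
Gbp7: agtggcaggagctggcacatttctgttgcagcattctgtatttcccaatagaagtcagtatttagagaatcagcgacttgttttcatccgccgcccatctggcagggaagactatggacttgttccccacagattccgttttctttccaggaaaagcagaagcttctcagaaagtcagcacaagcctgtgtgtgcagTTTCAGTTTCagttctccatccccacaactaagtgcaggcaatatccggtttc
Ifit1: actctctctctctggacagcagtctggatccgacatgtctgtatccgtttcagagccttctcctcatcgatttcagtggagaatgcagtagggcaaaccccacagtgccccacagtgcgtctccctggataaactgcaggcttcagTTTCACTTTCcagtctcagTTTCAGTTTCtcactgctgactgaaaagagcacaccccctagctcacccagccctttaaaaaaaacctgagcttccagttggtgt

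The core was searched as 2 copies of GAAA with 2 bases between them, on both strands, so that it reads as 2 copies of TTTC where it lies on the opposite strand, as in all 5 matches above. The match nearest the start ended 111 bases before the start in Rsad2, 50 in Gbp2, 44 in Gbp7 and 76 in Ifit1. Shares are by gene symbol, with a match in any promoter of the symbol counted and promoters on chromosome 18 left out. The core was found for 3.46% of the 27025 symbols searched. It was found for 38 of 419 (9.07%) higher in ISRIB M1, 13 of 372 (3.49%) lower and 2.85% of 1052 not called. Over list members with a promoter, tested or not, it was found for 10 of 11 interferon-induced GTPases and 10 of 29 of the antiviral list. The next highest shares were 4 of 27 (14.8%) in the STAT, IRF and JAK list and 6 of 42 (14.3%) for ribosomal proteins. The gamma-activated site, searched as TTCNNNGAA on both strands, can overlap the first motif. It was found for 8.13% of all symbols searched, 9.55% of those higher, 5.38% of those lower and 6 of 11 GTPases. The core of the C/EBP-ATF response element, TGATGCAA on either strand, was found for 0.918% of all symbols searched and for 7 of 33 integrated stress response targets. Among the genes called here it was found for 4 of 419 (0.955%) of those higher and 5 of 372 (1.34%) of those lower. A match is a run of letters in the window, and occupancy was not measured.

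The table gives whole-number counts for 24552 gene symbols. Library totals were low and close, 459336 to 495164 counts in ISRIB M0 and 468618 to 493218 in ISRIB M1. Raw counts of the groups can therefore be read side by side, with the reservation that the TMM scaling factors averaged 1.11 in ISRIB M0 and 0.907 in ISRIB M1, which moves a fitted log2 fold change by 0.29 upward from the ratio of totals. The annotation matched 24170 symbols, and the 5840 whose exons overlap those of an opposite-strand gene made up 24.16% of them but held 83.93% to 89.65% of the counts in an ISRIB library. The kit was strand-specific and the strand setting of the counting is not given in the sources used here, so reads of such a symbol and of its opposite-strand partner cannot be told apart, and the partner is named beside most results. At the same time 50 of 57 ribosomal protein genes, which every cell uses, had too few counts to be tested, none of them above 16 counts in a library, and Rpl26, Rpl27, Rpl30 and Rpl34 were at 0 in all 6. Whether reads were assigned to the strand opposite to their transcripts was not tested. If they were, the count of any symbol, with or without a partner, would not measure its own transcript, and a count near 0 would not show a low level. Every value below is therefore that of the symbol as deposited. For the same reason marker counts, high or near 0, cannot decide which cell types were present, and they are given as values. Of 16 macrophage markers 12 passed the filter on low counts. In ISRIB M1 5 of the 12 were called higher, against 23.9% of all tested genes, and 2 lower, against 20.9%. Their median log2 fold change was 1.30. The summed level of all 16 was 569.9 to 818.5 CPM (counts scaled to library size) in ISRIB M0 and 641.7 to 835.1 in ISRIB M1. Markers of neutrophils, T and NK cells, B cells, stroma, mast and erythroid cells and osteoclasts did not pass that filter, with no count above 13 in any library, and the neutrophil marker S100a8, the fibroblast marker Col1a1 and the osteoclast marker Acp5 were at 0 in all 6. Of 10 dendritic cell markers, 3 were tested and differed in opposite directions. Xcr1, a chemokine receptor, had 10, 16 and 19 counts in ISRIB M0 and 426, 434 and 407 in ISRIB M1, Bst2 had 0, 0 and 0 against 14, 18 and 12, and Clec9a had 10, 31 and 47 against 0, 0 and 0. The part of such cells in the results was not tested, and in bulk RNA fewer cells of a type and less RNA per cell cannot be told apart.

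Between ISRIB M1 and ISRIB M0 the counts of a large share of the tested symbols differed, a share that depended on the filter on low counts. With no filter 984 of 10978 genes (8.96%) were called, and without 1 ISRIB library at a time 35% to 37.7%. The main fit called more. Of 2356 genes tested, 1055 (44.8%) were called by edgeR's quasi-likelihood test at an adjusted p of 0.05, 563 (23.9%) higher and 492 (20.9%) lower in ISRIB M1. Requiring also a change of 1 or more on the log2 scale left 844 genes, 452 of them higher. The median fitted log2 fold change was 2.29 among genes called higher, -1.85 among genes called lower and -0.01 over all tested. The balance of directions depended on the scaling. With library totals alone, an alternative added after the data were seen, the median over all genes was -0.30, and 436 genes were higher and 672 lower, so that 39.4% of calls were increases against 53.4% with TMM. Symbols with an opposite-strand overlap were called about as often (44.6% of 1562) as those without (45.2% of 794), with 335 higher and 361 lower among the former and 228 and 131 among the latter. Along the first principal component of the 6 libraries, which held 74.3% of the variance, the 3 ISRIB M0 libraries lay between -40.92 and -39.61 and the 3 ISRIB M1 libraries between 39.18 and 42.16.

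**Figure D1:**
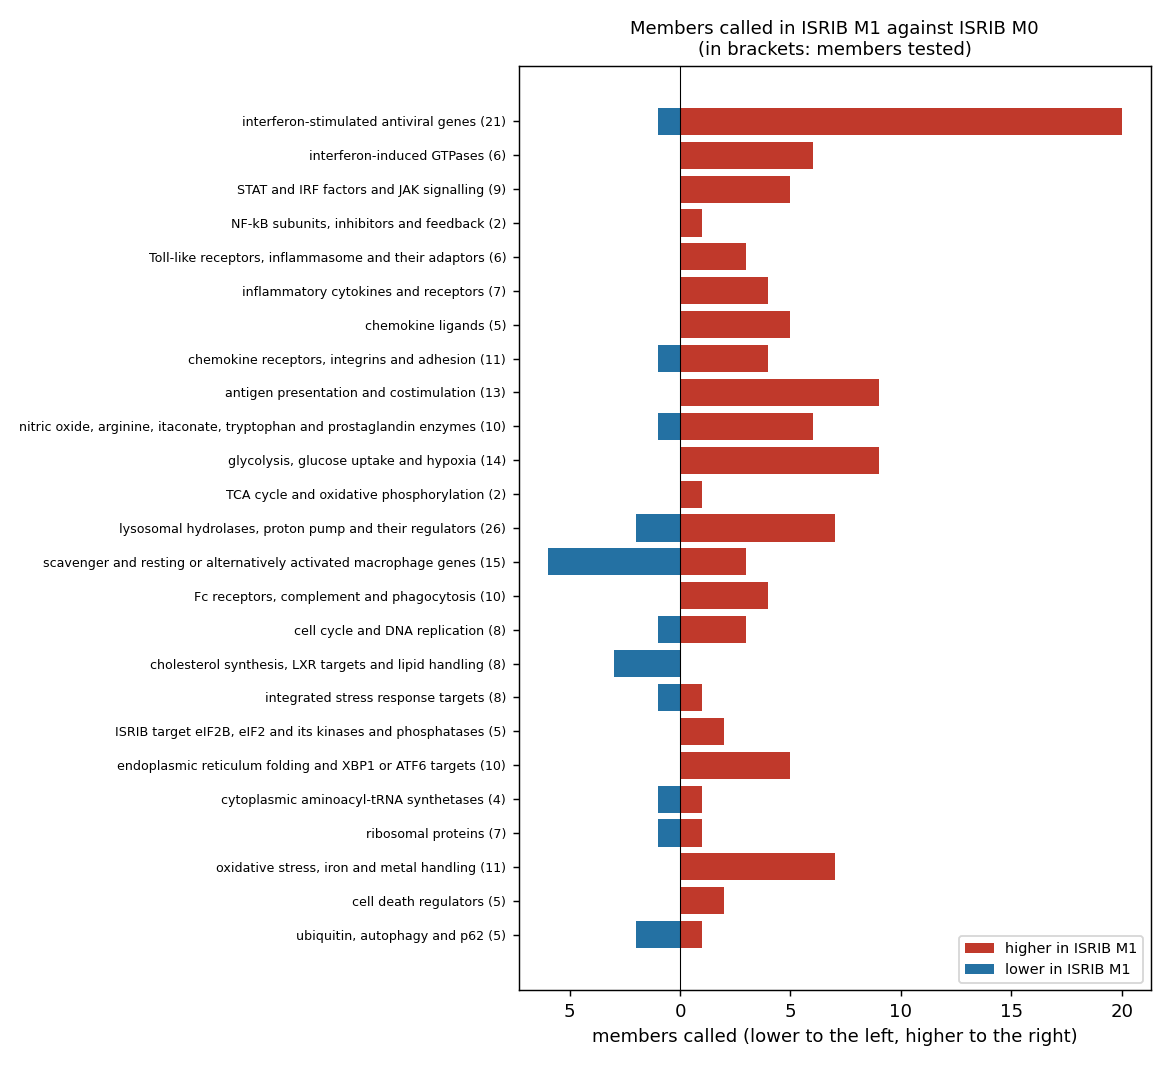
Number of tested members of each of 25 functional lists called higher (red, to the right) or lower (blue, to the left) in ISRIB M1 against ISRIB M0, 3 libraries each, at an adjusted p of 0.05; the number tested stands in brackets. The antiviral list has 20 of 21 members higher, and the scavenger and cholesterol lists have more members lower than higher.

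Functional lists were drawn from general knowledge of the M1 programme, metabolism and the integrated stress response, 25 lists with 845 symbols, of which 224 had enough counts to be tested. Of these 224, 108 were higher, 19 lower and 97 not called. More members were higher than lower in 19 of the 25 lists. The counts below describe the members that passed the filter on low counts, which a gene absent from one group passes only through the other group. Each count stands against 23.9% of all tested genes higher and 20.9% lower.

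The clearest block of increases was the antiviral programme induced by interferons. Of 38 members 21 were tested, 20 were higher, against 23.9% of all tested genes, and 1 was lower. The median fitted log2 fold change was 5.05, and 4.07 when genes with no count in ISRIB M0 were set at their lower bound. Rsad2, which encodes viperin, an enzyme that makes a chain-terminating nucleotide, had 0, 0 and 4 counts in the ISRIB M0 libraries and 295, 218 and 157 in the ISRIB M1 libraries, a log2 fold change of 7.56 ± 0.56 (SE, adjusted p = 5.34e-11). Cmpk2, its neighbour gene and a nucleotide kinase of mitochondria, had 0, 0 and 0 against 23, 47 and 40, at least 45.1-fold higher. Ifit2, of the family that binds foreign RNA, had 6, 2 and 0 against 281, 302 and 283 (6.98 ± 0.39, adjusted p = 8.47e-14). Its relative Ifit1 had 0, 0 and 1 against 56, 49 and 63, a ratio of 206.5 with a counting interval of 36.6 to 8206. In each of these genes the lowest ISRIB M1 library lay above the highest ISRIB M0 library.

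Other antiviral effectors were absent or nearly absent in ISRIB M0. Mx1, a dynamin-like GTPase that blocks influenza, had 0, 0 and 0 counts against 33, 44 and 12, at least 36.5-fold higher. Oasl1, of the oligoadenylate synthetase family, had 0, 0 and 0 against 32, 38 and 25, at least 38.9-fold higher, and shares 38 exon bases with Gm13822. Bst2, the tetherin that holds virions at the membrane, had the counts given above (adjusted p = 0.000994). Parp9 and Dtx3l, partners in a ubiquitin ligase and ADP-ribosylation complex, are divergent genes that overlap each other by 458 bases. Parp9 had 263, 330 and 318 counts against 1033, 1336 and 1206 (2.27 ± 0.12, adjusted p = 2.90e-14), and Dtx3l had 36, 46 and 29 against 280, 213 and 225 (3.00 ± 0.23, adjusted p = 4.70e-11). The single decrease of the list was in Ifi35, named after its values were seen, with 27, 20 and 24 counts against 0, 2 and 4 (-3.22 ± 0.92, adjusted p = 0.00582), and it shares 290 bases with Gm11626. Of the 17 members not tested, 4 had no count in any ISRIB library and none exceeded 25.

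All 6 tested GTPases of the interferon-induced families, which attack the vacuoles of intracellular pathogens, were higher, with a median of 5.36 and 3.95 at the bounds. Gbp2 had 0, 0 and 0 counts in ISRIB M0 and 74, 113 and 84 in ISRIB M1, at least 111.1-fold higher. The microRNA symbol Mir6381, annotated on the strand opposite Gbp2 with an overlap of 24 bases, had 213, 138 and 262 against 14966, 14438 and 13791 (6.43 ± 0.18, adjusted p = 1.31e-19), and was among the 10 symbols with the most counts. Iigp1 had 0, 0 and 0 against 14, 34 and 30 and Igtp 0, 0 and 0 against 10, 34 and 4, at least 32.0-fold and 19.7-fold higher. Gbp5, which aids inflammasome assembly, rose by 3.60 ± 0.75 (adjusted p = 0.000321), Tgtp2 by 3.56 ± 0.97 (adjusted p = 0.00397) and Gbp7 by 3.09 ± 0.54 (adjusted p = 5.70e-05). Gbp7 was the exception in its starting level, with 11, 1 and 9 counts in ISRIB M0 and 38, 46 and 66 in ISRIB M1, whereas the vehicle M0 libraries had 0, 0 and 0. With no filter on low counts 11 members were called higher, in a fit that called 537 of 10978 genes higher. The other 13 members in the table were not tested, and the highest count among them was 26.

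**Figure D2:**
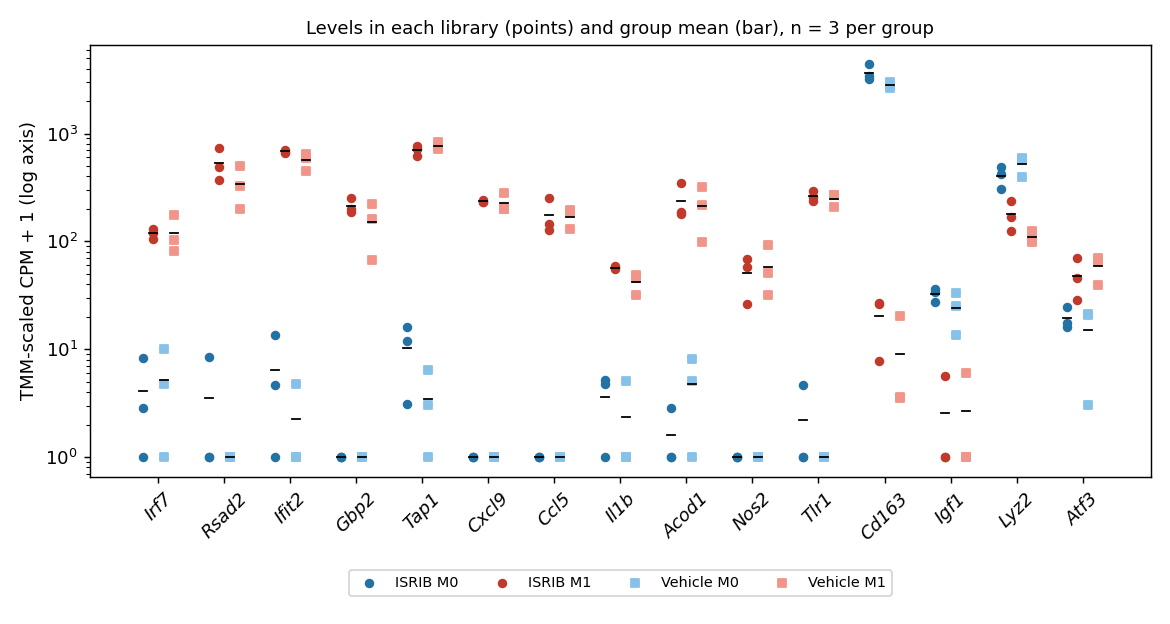
TMM-scaled CPM plus 1, on a log axis, of 15 genes in each of the 12 libraries, with 3 points per group and a bar at the group mean. Interferon and effector genes such as Cxcl9 (0 counts in all ISRIB M0 libraries, 92 to 108 counts in ISRIB M1) lie apart between M0 and M1 with and without ISRIB, whereas Cd163 lies high in M0.

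Of 30 members of the STAT, IRF and JAK list 9 were tested, 5 were higher and none was lower. Stat2, of the type I interferon complex, had 0, 4 and 0 against 21, 47 and 20 (4.62 ± 0.86, adjusted p = 9.55e-05). Stat5b had 2, 0 and 6 against 47, 96 and 72 (4.96 ± 0.56, adjusted p = 1.12e-07). Irf7, the amplifier of type I interferon production, had 0, 4 and 1 against 42, 58 and 51 (5.11 ± 0.67, adjusted p = 6.44e-07). Socs3, the feedback inhibitor of JAK kinases, had 0, 0 and 0 against 2, 14 and 11, at least 11.1-fold higher. The other 4 were not called. Irf1, an early IFN-γ target, had 0, 4 and 11 counts against 9, 16 and 12, ranges that overlap (1.59 ± 1.08, adjusted p = 0.239). Irf5, which carries Toll-like receptor signals to cytokine genes, had 397, 472 and 439 against 388, 436 and 459 (0.27 ± 0.12, adjusted p = 0.0710), Stat6, the factor of interleukin 4 signalling, had a fitted change of -0.08 ± 0.28 (adjusted p = 0.844) and the interferon receptor chain Ifnar2 one of -0.49 ± 0.83 (adjusted p = 0.660).

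Several of these genes have a partner on the opposite strand with its own change. Phrf1, which overlaps Irf7 by 45 bases, had 0, 2 and 0 counts against 332, 248 and 236, a ratio of 501.6 with a counting interval of 138.4 to 4149. Tnpo3, opposite Irf5, had 24, 35 and 77 against 68, 75 and 62 (0.90 ± 0.34, adjusted p = 0.0335), ranges that overlap. That call was lost under 6 of the alternative fits, which include leaving out each library, with adjusted p up to 0.171. Here and below, a fit in which a gene had too few counts to be tested is not counted as a lost call. Raver2, opposite Jak1 and Gm22100, had 38, 25 and 35 against 5, 11 and 16 (-1.33 ± 0.47, adjusted p = 0.0235), a call lost under 5 of the alternatives.

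Genes of the Toll-like receptor and inflammasome pathway came next. Of 33 members 6 were tested and 3 were higher. Tlr1, which pairs with Tlr2 to sense bacterial lipopeptides, had 0, 2 and 0 counts against 103, 130 and 101, a ratio of 205.3 with a counting interval of 56.4 to 1702. Casp1, the inflammasome protease that matures interleukin 1 beta, had 0, 0 and 0 against 13, 27 and 26, at least 27.1-fold higher. Cd14, the LPS co-receptor, had 4, 4 and 2 against 8, 20 and 24 (2.61 ± 0.79, adjusted p = 0.00856). Among those not called, the DNA sensor Aim2 had 13, 0 and 0 against 14, 14 and 14 (1.89 ± 0.99, adjusted p = 0.125) and Mb21d1, which encodes the sensor cGAS, had a fitted change of 0.20 ± 0.37 (adjusted p = 0.688).

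Only 2 of 27 NF-kB subunits and inhibitors could be tested. Nfkbia, the inhibitor that NF-kB itself induces, had 0, 1 and 0 counts against 10, 13 and 10, a ratio of 40.6 with a counting interval of 6.79 to 1650 (adjusted p = 0.00301). Without the second ISRIB M1 library it had too few counts to be tested, and no member of the list was called higher. Nfkb2, the subunit of the non-canonical pathway, had 155, 166 and 144 against 148, 195 and 121 (0.29 ± 0.19, adjusted p = 0.227). Psd, which overlaps Nfkb2 by 299 bases on the opposite strand, had 816, 947 and 877 against 2075, 2362 and 2058 (1.60 ± 0.11, adjusted p = 2.21e-12).

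Among 35 cytokines and cytokine receptors 7 were tested and 4 were higher, with a median of 1.30. Il1b, the pro-inflammatory cytokine itself, had 2, 0 and 2 counts against 22, 26 and 23 (4.30 ± 0.86, adjusted p = 0.000217), and Il1rn, the natural antagonist of its receptor, had 0, 2 and 0 against 22, 38 and 35, a ratio of 58.4 with a counting interval of 15.7 to 489.2. The counts of this agonist and of the antagonist were thus both higher. Tnfsf9, a costimulatory ligand that shares 192 bases with Gm11110, had 5, 1 and 0 against 14, 15 and 14 (3.03 ± 0.92, adjusted p = 0.00871), and Tnfrsf1b, the second TNF receptor, rose from 17, 24 and 33 to 32, 62 and 55 (1.30 ± 0.39, adjusted p = 0.00829). Il1a had 13, 21 and 23 against 2, 9 and 8 and was not called (-1.28 ± 0.66, adjusted p = 0.121). The cytokines most often used to mark the M1 state were too thinly counted to test. Tnf had 0, 0 and 0 counts against 2, 8 and 10, Il6 had 0, 0 and 0 against 0, 6 and 0, and Il12b had 0, 0 and 0 against 0, 2 and 0.

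All 5 tested symbols on the strand opposite a cytokine gene were higher, with a median of 3.25. Gm14023, opposite Il1a by 222 bases, had 146, 113 and 86 counts against 2035, 1921 and 1732 (4.33 ± 0.20, adjusted p = 1.81e-15). Apobr, opposite Il27 and Cln3, had 8, 9 and 15 against 247, 277 and 245 (4.87 ± 0.25, adjusted p = 2.04e-14), and Gm16712, opposite Ebi3, had 1299, 1251 and 1284 against 7158, 7645 and 6987 (2.80 ± 0.11, adjusted p = 3.12e-17). Il27 and Ebi3 encode the chains of interleukin 27. Il1bos, opposite Il1b by 25 bases, had 1, 1 and 7 against 12, 26 and 35 (3.25 ± 0.73, adjusted p = 0.000663).

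Chemokine ligands held some of the largest increases. All 5 tested of 27 were higher, with a median of 9.16 and 6.31 at the bounds. Cxcl9, a CXCR3 ligand that recruits T cells and a classical IFN-γ target, had 0, 0 and 0 counts against 92, 108 and 98, at least 122.1-fold higher. Ccl5 had 0, 0 and 0 against 51, 112 and 61, at least 91.8-fold higher, and Cxcl10, also a CXCR3 ligand, had 0, 0 and 0 against 62, 74 and 58, at least 79.5-fold higher, with 133 bases shared with Art3. The remaining increases were small. Ccl3, a monocyte attractant, had 214, 286 and 292 against 297, 247 and 325 (0.44 ± 0.15, adjusted p = 0.0207), and Cxcl16, a ligand that doubles as a scavenger receptor, had 97, 95 and 86 against 114, 107 and 103 (0.52 ± 0.21, adjusted p = 0.0442). Both lost their call with library totals alone, with fitted changes of 0.15 and 0.23. Ccl3 also lost it without the first ISRIB M0 library or the first or the third ISRIB M1 library, and Cxcl16 without any 1 of the 6, so that 3 members were called in each of those 3 fits. Zmynd15, which overlaps Cxcl16 by 552 bases on the opposite strand, had 4552, 4160 and 3207 against 10454, 10855 and 9742 (1.67 ± 0.13, adjusted p = 3.06e-11).

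Among receptors and adhesion molecules 4 of 11 tested members were higher and 1 lower, against 23.9% and 20.9% of all tested genes. With only the 6 ISRIB libraries fitted, 2 were higher and none lower. Cx3cr1, the fractalkine receptor of resident macrophages and monocytes, had 17, 6 and 20 counts against 0, 0 and 2, a ratio of 17.5 with a counting interval of 4.56 to 149.0 (adjusted p = 0.00380), and shares 78 bases with Gm33858. Itga5, the fibronectin receptor chain, had 0, 0 and 0 against 8, 18 and 20, at least 18.9-fold higher. Itgam, the CD11b chain of complement receptor 3, rose from 4, 18 and 10 to 49, 39 and 31 (2.21 ± 0.51, adjusted p = 0.000909). Icam1, the leukocyte adhesion ligand, had 0, 0 and 2 against 9, 22 and 8, with a counting interval of 6.21 to 204.9 for the ratio, and shares 511 bases with Gm47079. The membrane metalloprotease Mmp14 had 6, 2 and 0 against 2, 34 and 20, ranges that overlap (2.97 ± 1.05, adjusted p = 0.0238), a call lost under 4 of the alternatives. Itga4, Itgal, Itgb1 and Itgb2 were not called, with fitted changes of 0.28, 1.56, -0.66 and 1.14.

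In the antigen presentation and costimulation list 13 of 35 members were tested, 9 were higher, against 23.9% of all tested genes, and none was lower, with a median of 3.17. The class II genes H2-Aa, H2-Ab1, H2-DMa and Cd74 had too few counts to be tested. Tap1, a subunit of the peptide transporter, had 1, 6 and 8 counts against 307, 321 and 264 (6.16 ± 0.32, adjusted p = 1.34e-14). Its divergent partner Psmb9, an immunoproteasome subunit that overlaps it by 212 bases, had 11, 47 and 23 against 35, 44 and 45 and was not called (0.93 ± 0.49, adjusted p = 0.128). Psme2, of the proteasome activator, had 0, 0 and 0 against 10, 12 and 4, at least 10.7-fold higher. The class I genes H2-T23 and H2-Q4 went from 4, 0 and 0 to 27, 22 and 21 (4.27 ± 0.87, adjusted p = 0.000268) and from 17, 1 and 15 to 96, 92 and 80 (3.29 ± 0.49, adjusted p = 3.63e-06), and H2-Q4 shares 496 bases with Gm11131. The other 3 called members rose by 2.10 to 3.17. Cd274, which encodes the inhibitory ligand PD-L1, had 0, 0 and 0 against 34, 34 and 50, at least 48.4-fold higher, and shares 511 bases with AC119228.1. Cd40, the receptor through which T cells license macrophages, had 0, 0 and 0 against 13, 0 and 4, ranges that touch at 0, and a call lost under 5 of the alternatives. A symbol opposite Nlrc5, the transactivator of class I genes, 9330175E14Rik, had 10, 7 and 16 against 149, 220 and 126 (4.18 ± 0.34, adjusted p = 9.46e-11), and Emc9, opposite Psme1 by 14 bases, had 106, 71 and 118 against 595, 588 and 586 (2.88 ± 0.18, adjusted p = 6.53e-13). BC051537, opposite H2-Oa and H2-Pa, had 3, 3 and 13 against 27, 17 and 14 (1.91 ± 0.65, adjusted p = 0.0189), a call lost under 4 of the alternatives.

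**Figure D3:**
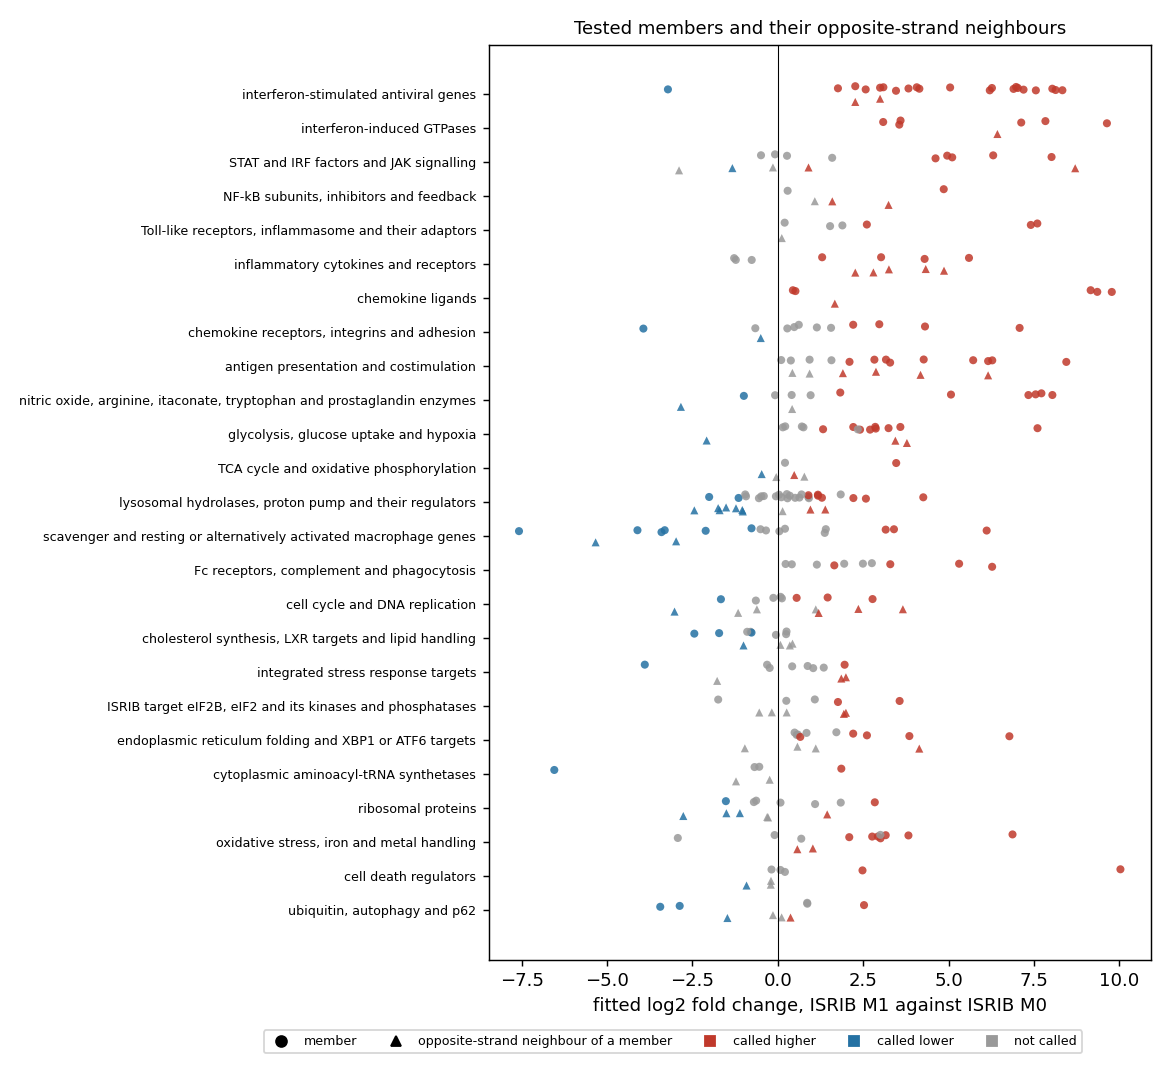
Fitted log2 fold change of ISRIB M1 against ISRIB M0 for every tested member of each list (circles) and for tested symbols whose exons overlap a member on the opposite strand (triangles), coloured by call at an adjusted p of 0.05. Antiviral members lie to the right of 0 with the exception of Ifi35 (-3.22), and 7 of 10 neighbours of lysosomal genes lie in blue to the left.

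Effector enzymes of the M1 state were next. Of 32 members of the nitric oxide, arginine, itaconate, tryptophan and prostaglandin list, 10 were tested, 6 were higher, against 23.9% of all tested genes, 1 was lower and 3 were not called. Nos2, the inducible nitric oxide synthase, had 0, 0 and 0 counts against 10, 30 and 24, at least 26.2-fold higher (adjusted p = 2.66e-05). Slc7a2, the transporter that supplies it with arginine, had 0, 0 and 0 against 28, 31 and 12, at least 29.1-fold higher, and shares 635 bases with Gm26584. Acod1, which makes itaconate from a TCA cycle intermediate, had 0, 1 and 0 against 71, 155 and 80, a ratio of 376.2 with a counting interval of 67.0 to 14910. Ptgs2, the inducible cyclooxygenase, had 0, 0 and 0 against 26, 18 and 10, at least 22.1-fold higher. Sod2, the superoxide dismutase of mitochondria, had 0, 4 and 1 against 53, 40 and 53 (5.07 ± 0.78, adjusted p = 6.58e-06), and Cybb, the catalytic subunit of the phagocyte oxidase, rose from 24, 34 and 24 to 48, 84 and 107 (1.83 ± 0.34, adjusted p = 9.31e-05). The oxidase subunits Cyba and Ncf1 were not called (0.41 and 0.96).

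Arginase genes behaved otherwise. Arg1, the marker of alternative activation, was nearly uncounted in both groups, with 1, 0 and 0 counts in ISRIB M0 and 0, 0 and 0 in ISRIB M1. Arg2, named after its values were seen and the only decrease of the list, had 50, 29 and 45 against 16, 16 and 19 (-0.99 ± 0.39, adjusted p = 0.0421), but no member was called lower with DESeq2 size factors, with limma-voom or without the first ISRIB M0 library. Vti1b, a vesicle SNARE gene that overlaps Arg2 by 285 bases on the opposite strand, had 194, 247 and 172 against 38, 24 and 7 (-2.84 ± 0.34, adjusted p = 1.28e-07).

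Glycolytic genes that were called all rose. Of 32 members 14 were tested, 9 were higher and none was lower, with a median of 2.38. Hk3, a hexokinase of myeloid cells, had 0, 0 and 0 counts against 19, 30 and 17, at least 27.1-fold higher. Unc5a, which overlaps it by 34 bases, had 42, 44 and 59 against 554, 588 and 482 (3.78 ± 0.18, adjusted p = 4.28e-15). The glycolytic kinase Pgk1 had 2, 2 and 0 against 4, 26 and 14 (3.59 ± 1.03, adjusted p = 0.00608) and the aldolase Aldoa 3, 10 and 1 against 20, 27 and 37 (2.85 ± 0.63, adjusted p = 0.000600), the latter with 25 bases shared with Fam57b. G6pdx, the entry enzyme of the pentose phosphate pathway, which overlaps Ikbkg by 418 bases, had 2, 3 and 1 against 14, 13 and 22 (3.24 ± 0.86, adjusted p = 0.00336). Ldha, which makes lactate, had 0, 10 and 0 against 22, 22 and 16 (2.87 ± 1.06, adjusted p = 0.0299), and Hif1a, the hypoxia factor that drives these genes, had 5, 3 and 0 against 13, 15 and 17 (2.70 ± 1.00, adjusted p = 0.0315) and shares 330 bases with Gm15283. Ldha lost its call under 6 and Hif1a under 7 of the alternatives, with adjusted p up to 0.163 and 0.127. With library totals alone 6 members were called. Hk1, Pfkm, Pfkp, Tpi1 and Pgd did not pass, with fitted changes between 0.15 and 2.34.

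Gm15441, a transcript opposite Txnip, the thioredoxin-binding inhibitor of glucose uptake, was among the 10 symbols with the most counts. It had 18507, 20942 and 21553 counts in ISRIB M0 and 4012, 3449 and 4197 in ISRIB M1 (-2.08 ± 0.10, adjusted p = 1.81e-15), and the 2 genes overlap by 606 bases. Spsb2, opposite Tpi1 by 34 bases, had 2, 1 and 2 against 13, 20 and 15 (3.44 ± 0.76, adjusted p = 0.000573).

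For the TCA cycle and oxidative phosphorylation 2 of 39 members had enough counts to be tested. The ATP synthase subunit Atp5b had 2, 1 and 3 counts against 25, 15 and 17 (3.47 ± 0.81, adjusted p = 0.00113) and the other tested member was not called. With 37 members untested, these counts give no account of the respiratory chain as a group.

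Of 49 lysosomal genes 26 were tested, 7 were higher, 2 lower and 17 not called, and the median was 0.43. The share higher was close to the 23.9% of all tested genes, and the share lower was under their 20.9%. Ctsc, the protease that activates granule serine proteases, had 2, 0 and 8 counts against 42, 69 and 52 (4.26 ± 0.59, adjusted p = 1.62e-06). Lamp2, a lysosomal membrane protein, rose from 5, 0 and 8 to 24, 14 and 27 (2.58 ± 0.73, adjusted p = 0.00571), and Grn, the progranulin gene, from 14, 10 and 12 to 42, 49 and 47 (2.21 ± 0.43, adjusted p = 0.000144). Grn shares 68 bases with Fam171a2. The cathepsin Ctsz, which shares 10 bases with Nelfcd, rose by 1.29 ± 0.37 (adjusted p = 0.00555), and Npc1, the cholesterol exporter of the late endosome, rose from 82, 61 and 97 to 137, 158 and 149 (1.18 ± 0.22, adjusted p = 8.01e-05). Npc1 overlaps 3110002H16Rik by 511 bases. The largest decrease was in Ctsa, a carboxypeptidase that protects beta-galactosidase, with 15181, 10002 and 10312 against 2441, 2084 and 2723 (-2.01 ± 0.18, adjusted p = 5.48e-10). The second decrease was in Ctsd, the aspartic cathepsin, named after its values were seen, with 78, 148 and 146 against 22, 84 and 31 (-1.15 ± 0.40, adjusted p = 0.0233), ranges that overlap. Only 1 member was called lower without the second or the third ISRIB M0 library or without the first ISRIB M1 library, and 4 with library totals alone.

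Of 10 tested symbols on the strand opposite lysosomal genes 7 were lower, against 20.9% of all tested genes, and 2 higher, with a median of -1.13. Fdft1, squalene synthase of the cholesterol pathway, overlaps the cathepsin gene Ctsb by 774 bases. Fdft1 had 21372, 25752 and 26357 counts in ISRIB M0 and 3808, 3887 and 3249 in ISRIB M1 (-2.44 ± 0.10, adjusted p = 1.32e-16), whereas Ctsb had 85, 94 and 135 against 94, 141 and 92 (0.35 ± 0.26, adjusted p = 0.278). Pltp and Neurl2, which both lie opposite Ctsa and like it were lower, fell by 1.75 ± 0.10 and 1.70 ± 0.18 (adjusted p = 1.20e-13 and 2.44e-08). Dgkq, opposite Idua and Tmem175, had 279, 208 and 216 against 72, 50 and 79 (-1.51 ± 0.22, adjusted p = 3.63e-06). The exceptions included Ddb2, a DNA repair gene opposite the acid phosphatase Acp2 by 652 bases, with 6664, 5501 and 6025 against 13154, 12864 and 13003 (1.39 ± 0.12, adjusted p = 2.11e-10). Ddb2 and Fdft1 were both among the 10 most counted symbols.

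The list with the most members called lower was that of resting and alternatively activated macrophages. Of 39 members 15 were tested, 6 were lower, against 20.9% of all tested genes, and 3 higher. Cd163, the haemoglobin scavenger receptor, had 1632, 1761 and 2342 counts in ISRIB M0 and 10, 3 and 11 in ISRIB M1 (-7.58 ± 0.27, adjusted p = 7.17e-18), and its groups are far apart. Igf1, a trophic factor of resident macrophages, had 17, 18 and 14 against 0, 0 and 2, a ratio of 19.9 with a counting interval of 5.23 to 169.2. The folate receptor Folr2 had 14, 18 and 38 against 2, 0 and 3 (-3.41 ± 0.82, adjusted p = 0.00142) and shares 975 bases with Gm10602. Clec7a, the beta-glucan receptor dectin-1, had 14, 10 and 4 against 2, 0 and 0, and its call (adjusted p = 0.0412) was lost under 6 of the alternatives. Apoe, the apolipoprotein, had 222, 333 and 292 against 144, 110 and 146 (-0.77 ± 0.20, adjusted p = 0.00230). The mannose receptor Mrc1, a common marker of alternative activation, had 2, 4 and 5 against 0, 0 and 0 and was too thinly counted to test.

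The receptors for modified lipoproteins and bacteria rose within the same list. Marco had 2, 0 and 0 counts against 68, 32 and 35, a ratio of 83.0 with a counting interval of 22.5 to 692.2, and Msr1 had 1, 5 and 0 against 20, 16 and 18 (3.40 ± 0.97, adjusted p = 0.00558). Both genes have no exon overlap on the opposite strand, and neither has Cd163. Stab1, a scavenger receptor of resting macrophages, had 764, 595 and 628 against 411, 421 and 450 and was not called (-0.35 ± 0.17, adjusted p = 0.0982). Nt5dc2, which overlaps Stab1 by 112 bases, had 1483, 1856 and 1813 against 167, 194 and 170 (-2.98 ± 0.12, adjusted p = 2.13e-16). Ccdc152, opposite Selenop by 439 bases, had 87, 124 and 103 against 0, 4 and 2 (-5.33 ± 0.54, adjusted p = 8.27e-09). The M-CSF receptor gene Csf1r, a macrophage marker, had 36, 50 and 43 against 12, 16 and 24 and was not called (-1.01 ± 0.43, adjusted p = 0.0602). Hmgxb3, named after its values were seen, overlaps Csf1r by 873 bases on the opposite strand. It had 935, 1097 and 999 against 66, 64 and 56 (-3.72 ± 0.17, adjusted p = 1.81e-15). Lyz2, the macrophage lysozyme, named after its values were seen, had 146, 229 and 263 against 67, 106 and 53 (-1.19 ± 0.24, adjusted p = 0.000195). Among the 12 tested macrophage markers 5 were called higher and 2, Lyz2 among them, lower.

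Fc receptors, complement and the phagocytic machinery had 4 of 10 tested members higher, against 23.9% of all tested genes, and none lower. With only the 6 ISRIB libraries fitted, 2 were higher. The complement component C3 had 0, 0 and 5 counts against 61, 72 and 41 (5.31 ± 0.74, adjusted p = 1.47e-06). Rac2, the GTPase that activates the phagocyte oxidase, had 0, 0 and 0 against 10, 14 and 2, at least 10.7-fold higher. The Src-family kinase Lyn had 40, 16 and 36 against 86, 95 and 58 (1.66 ± 0.34, adjusted p = 0.000239) and shares 248 bases with Gm26857. Fcer1g, the signalling chain of Fc receptors, had 2, 0 and 3 against 18, 17 and 8 (3.29 ± 1.14, adjusted p = 0.0217), a call lost under 2 of the alternatives. Complement factor B, Cfb, had 119, 173 and 155 against 137, 146 and 141 and was not called (0.23 ± 0.18, adjusted p = 0.324).

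Among iron and oxidant defence genes 7 of 11 tested members were higher, against 23.9% of all tested genes, none was lower and 4 were not called, with a median of 2.93. With only the 6 ISRIB libraries fitted, 3 were higher. Fth1, the ferritin heavy chain that stores iron, had 23, 39 and 50 counts against 262, 608 and 435 (3.83 ± 0.28, adjusted p = 1.30e-11). Hmox1, which breaks down haem, had 4, 5 and 8 against 22, 45 and 60 (3.16 ± 0.61, adjusted p = 0.000132). Txn1, thioredoxin, had 0, 0 and 0 against 2, 14 and 24, at least 16.4-fold higher, and the peroxiredoxin Prdx5 had 8, 0 and 6 against 8, 44 and 30 (2.76 ± 0.71, adjusted p = 0.00238) and shares 409 bases with Trmt112. Keap1, the repressor of NRF2, which shares 510 bases with Gm16754, had 4, 0 and 2 against 8, 27 and 8 (3.01 ± 0.88, adjusted p = 0.00726) and lost its call without the second ISRIB M1 library. Srxn1, an NRF2 target, had 4, 0 and 0 against 8, 14 and 6, and its call (adjusted p = 0.0423) was lost under 7 of the alternatives. The iron exporter Slc40a1 had 4, 10 and 8 against 2, 0 and 0 and was not called (-2.93 ± 1.23, adjusted p = 0.0573), and Ftl1, the ferritin light chain, was not called either (0.69 ± 0.30, adjusted p = 0.0630).

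Cholesterol synthesis and lipid handling had no member higher and 3 of 8 tested lower, with a median of -0.78. Besides Fdft1, described above with its overlap of Ctsb, these were Sqle and Apoe. Sqle, squalene epoxidase, which has no opposite-strand overlap, had 240, 239 and 172 counts against 60, 47 and 54 (-1.72 ± 0.22, adjusted p = 5.07e-07), and its groups do not overlap. The other tested members, Mvd, Lpcat3, Lpl, Plin2 and Cpt1a, were not called, with fitted changes of -0.90 to 0.26. Emg1, opposite Lpcat3 by 334 bases, had 126, 113 and 136 against 44, 62 and 47 (adjusted p = 0.00204).

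The direct readout of the pathway that ISRIB inhibits was thin. Of 38 integrated stress response targets 8 were tested, 1 was higher and 1 lower, a share of calls below the 44.8% of all tested genes, and 17 members had no count in any ISRIB library. Atf4 itself had 2, 1 and 0 counts against 0, 0 and 0, Asns had 0, 0 and 0 against 2, 4 and 0, and Trib3 and Chac1 had 0 in all 6 libraries. Atf3, a stress factor that LPS also induces, had 8, 13 and 8 against 11, 31 and 19 (1.35 ± 0.61, adjusted p = 0.0779). Ddit3, which encodes CHOP, had 49, 52 and 36 against 26, 34 and 35 (-0.24 ± 0.33, adjusted p = 0.589). Mars, a tRNA synthetase gene that meets it on the opposite strand with an overlap of 68 bases at their 3′ ends, rose from 20, 38 and 47 to 109, 109 and 90 (1.86 ± 0.30, adjusted p = 1.13e-05). Xpot, the tRNA exporter, rose from 6, 16 and 4 to 26, 21 and 35 (1.96 ± 0.67, adjusted p = 0.0202), a call lost without the first or the third ISRIB M0 library, without the third ISRIB M1 library and with no filter on low counts. Cebpg, a dimer partner of ATF4, had 29, 29 and 40 against 4, 1 and 0 (-3.89 ± 0.89, adjusted p = 0.000836) and overlaps Gm45095 by 4 bases. Tulp2, opposite the phosphatase subunit gene Ppp1r15a and Dhdh, had 4, 3 and 6 against 17, 13 and 13 (2.00 ± 0.67, adjusted p = 0.0173), a call lost under 3 of the alternatives.

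Around eIF2 itself, 2 of 5 tested members were higher and none lower. Eif2ak2, the interferon-induced eIF2 kinase PKR, had 26, 27 and 19 counts against 46, 98 and 58 (1.76 ± 0.37, adjusted p = 0.000364) and shares 174 bases with Gm26637. Ppp1r15b, the constitutive partner of the eIF2 phosphatase, had 6, 4 and 0 against 23, 48 and 31 (3.57 ± 0.69, adjusted p = 0.000136) and shares 640 bases with Gm26616. The symbols of a kinase and of a phosphatase subunit acting on the same residue thus both had higher counts. Eif2a, Eif5 and Eif5b were not called (-1.75, 1.08 and 0.25). Serp1, opposite Eif2a by 72 bases, had 7, 15 and 4 against 13, 28 and 41 (1.94 ± 0.68, adjusted p = 0.0223), ranges that overlap and a call lost under 4 of the alternatives.

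Endoplasmic reticulum folding genes, which belong to the XBP1 and ATF6 arms, had 5 of 10 tested members higher and none lower. Calr, calreticulin, had 8, 5 and 3 counts against 39, 21 and 21 (2.61 ± 0.53, adjusted p = 0.000262). Hspa5, the chaperone BiP, had 4, 20 and 0 against 17, 42 and 32, ranges that overlap (2.21 ± 0.73, adjusted p = 0.0159). Dnajb11, a cochaperone of BiP, had 0, 0 and 0 against 22, 2 and 12, at least 14.8-fold higher, and P4hb, protein disulfide isomerase, had 2, 1 and 0 against 12, 6 and 22, a ratio of 16.4 with a counting interval of 5.22 to 82.8. Derl2, which extracts misfolded proteins and shares 231 bases with Mis12, had 74, 63 and 55 against 63, 113 and 74 (0.66 ± 0.25, adjusted p = 0.0375). Its call was lost under 5 of the alternatives, library totals alone among them, with adjusted p up to 0.245. Calls of Hspa5 and P4hb were lost under 3 and 2 of the alternatives, and without the third ISRIB M0 library 2 members were called, and without the second ISRIB M1 library, or with only the 6 ISRIB libraries, 3. Hsp90b1, Canx, Pdia3, Syvn1 and Ssr3 were not called, with fitted changes of 0.49 to 1.72.

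Calls in the few translation genes tested went in both directions. With 18 of 22 synthetases and 50 of 57 ribosomal protein genes untested, these counts give no account of either group. Among 4 tested aminoacyl-tRNA synthetases Mars was higher and Yars lower, the latter with 8, 21 and 10 counts against 0, 0 and 0, at least 10.6-fold lower and with 30 bases shared with C77080. Yars was the only decrease with TMM, whereas 3 members were lower with library totals alone and 0 when only the 6 ISRIB libraries were fitted. Of 57 ribosomal protein genes 7 were tested, Rps9 was higher (2.84 ± 0.99, adjusted p = 0.0216, lost without the first or the third ISRIB M0 or the first ISRIB M1 library) and Rpl5 lower, with 147, 183 and 164 against 45, 62 and 33 (-1.52 ± 0.24, adjusted p = 1.11e-05). Fam69a, opposite Rpl5 by 953 bases, also fell (adjusted p = 4.43e-08). Sphk2, a sphingosine kinase gene opposite Rpl18 and Dbp, had 662, 628 and 717 against 71, 63 and 106 (-2.77 ± 0.18, adjusted p = 2.28e-12).

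Cell cycle genes gave 3 higher and 1 lower of 8 tested, with a median of 0.10. Aurka, the mitotic kinase, had 38, 25 and 26 counts against 4, 8 and 11 (-1.67 ± 0.57, adjusted p = 0.0204), a call lost without the first ISRIB M0 or the first or the second ISRIB M1 library and with no filter on low counts. Ccnd1, cyclin D1, had 141, 134 and 178 against 188, 180 and 172 (0.55 ± 0.19, adjusted p = 0.0176), and Cdkn1a, the inhibitor p21, which shares 273 bases with AC167363.2, had 2, 0 and 6 against 18, 4 and 24 (2.78 ± 1.07, adjusted p = 0.0382). None of the 3 members called higher was called with library totals alone, or without the second ISRIB M0 or the first ISRIB M1 library. Ccna2, cyclin A2, had 440, 403 and 415 against 383, 327 and 404 (0.12 ± 0.14, adjusted p = 0.508). Oraov1, opposite Ccnd1 by 1100 bases, had 511, 312 and 368 against 4497, 3736 and 4142 (3.66 ± 0.19, adjusted p = 2.09e-14), and Bysl, opposite Ccnd3 by 361 bases, rose by 2.36 ± 0.15 (adjusted p = 6.31e-13).

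Death and autophagy regulators closed the lists. Bcl2l14, a BCL-2 family gene, had 0, 0 and 0 counts against 130, 128 and 96, at least 145.1-fold higher, and shares 577 bases with 4933406J09Rik. Cflar, the inhibitor of caspase-8, had 0, 2 and 8 against 19, 12 and 15 (2.48 ± 0.84, adjusted p = 0.0189), a call lost without the first or the second ISRIB M0 library or the first ISRIB M1 library. Atg7, the E1-like enzyme of autophagosome formation, fell from 752, 985 and 827 to 70, 112 and 103 (-2.87 ± 0.15, adjusted p = 2.30e-14), with no exon overlap and the nearest opposite-strand gene, Vgll4, 14 bases away. Atg13, of the initiating kinase complex, had 10, 18 and 16 against 0, 3 and 0, a ratio of 11.9 with a counting interval of 3.82 to 60.1 (adjusted p = 0.0198), a call lost without the second ISRIB M0 or the first or the third ISRIB M1 library. Usp25 had 0, 6 and 2 against 18, 16 and 4, and its call (adjusted p = 0.0464) was lost under 7. The autophagy receptor Sqstm1, also known as p62, was not called (0.86 ± 0.62, adjusted p = 0.265).

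Outside the lists, the 12 largest increases and 12 largest decreases among genes averaging 50 counts or more, with groups that do not overlap, included symbols of varied kinds. Med7, a Mediator subunit, had 0, 0 and 0 counts against 131, 144 and 144, at least 171.7-fold higher, and overlaps 2310031A07Rik by 609 bases. Ghdc had 0, 2 and 0 against 549, 554 and 647, a ratio of 1076 with a counting interval of 297.3 to 8889. Nelfe, a subunit of the factor that holds RNA polymerase II at promoters, rose from 4, 6 and 6 to 259, 214 and 251 (5.77 ± 0.35, adjusted p = 4.95e-13). Skiv2l2, an RNA helicase of the exosome that overlaps Plpp1 by 452 bases, had 0, 8 and 4 against 310, 265 and 274 (6.41 ± 0.39, adjusted p = 3.96e-13). Among decreases, Ccdc127 had 78, 176 and 156 against 0, 0 and 0, at least 111.2-fold lower, with 2755 bases shared with Lrrc14b. Prune2 had 606, 515 and 604 against 6, 2 and 2 (-7.09 ± 0.39, adjusted p = 6.28e-14). Card14, which overlaps Sgsh by 955 bases, a gene of lysosomal heparan sulfate breakdown, had 2567, 3038 and 2711 against 91, 86 and 85 (-4.69 ± 0.16, adjusted p = 4.31e-18), and Nat8l, which makes N-acetylaspartate, had 83, 193 and 119 against 1, 2 and 0, a ratio of 107.1 with a counting interval of 36.4 to 521.6.

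The most counted symbols were for the most part opposite-strand partners of other genes. AV051173, which has no match in the annotation, had 4099, 4064 and 3469 counts against 29864, 30962 and 26856 (3.21 ± 0.10, adjusted p = 1.85e-18). Tmem132a, opposite Slc15a3, a transporter of bacterial peptides in the endolysosome, had 13848, 14141 and 14195 against 20620, 21626 and 21408 (0.89 ± 0.09, adjusted p = 3.66e-09). Sla2, opposite 1110008F13Rik, had 4019, 4203 and 4013 against 14134, 12086 and 12693 (1.97 ± 0.10, adjusted p = 1.07e-14). The symbol 3110062M04Rik, opposite Tmem140, rose from 6301, 6901 and 6664 to 12558, 11389 and 11598 (1.14 ± 0.09, adjusted p = 6.64e-11). Snx22, opposite the cyclophilin gene Ppib, had 8031, 7465 and 7398 against 7804, 8568 and 7985, and its small increase (0.38 ± 0.09, adjusted p = 0.00145) was not called with library totals alone (0.09, adjusted p = 0.290).

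**Figure D4:**
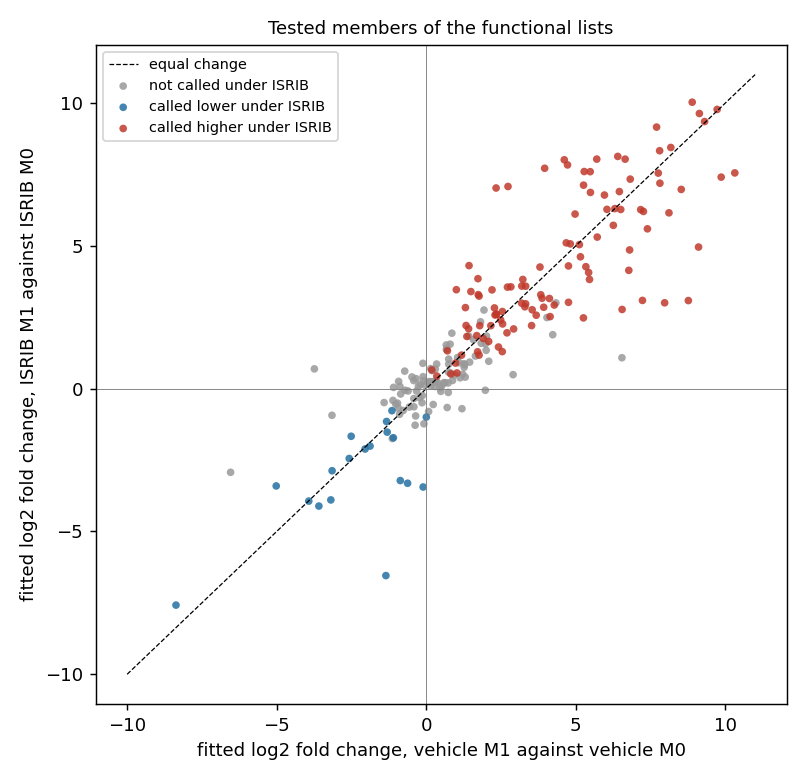
Fitted log2 fold change of M1 against M0 under ISRIB (vertical axis) and in vehicle (horizontal axis) for the 224 tested list members, coloured by call under ISRIB, with a dashed line of equal change. Of 127 members called under ISRIB, 126 lie on the same side of 0 on both axes, against 1027 of all 1055 genes called under ISRIB.

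Whether the response under ISRIB differed from that in vehicle was tested as an interaction over the same 2356 genes. The 2 polarization contrasts use separate libraries. No gene passed an adjusted p of 0.05 (0%), the lowest adjusted p was 0.183, and 167 genes (7.09%) had an unadjusted p under 0.05 in edgeR's quasi-likelihood test, with 145 in limma-voom and 169 in the DESeq2 Wald test, which also called 0. Of the 127 list members called under ISRIB, 126 had the same sign in vehicle and 109 were also called there. Of all 1055 genes called under ISRIB, 1027 had the same sign in vehicle, so a shared sign was not particular to the lists. Arg2 was the exception in sign, with a fitted change of 0.00 in vehicle (47, 28 and 44 counts against 35, 26 and 30) and -0.99 under ISRIB. Among the 224 tested members 16 had an unadjusted interaction p under 0.05, a share close to that of all genes.

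The 5 genes with the lowest interaction p are given as values. Basp1, a membrane protein of the MARCKS type, rose in both, from 169, 499 and 312 to 721, 893 and 467 counts under ISRIB (1.41) and from 156, 249 and 131 to 801, 989 and 1140 in vehicle (2.86, interaction adjusted p = 0.183). Its interaction was called without the first ISRIB M0 library, with no filter on low counts and with the replicate block. Nisch had 6, 6 and 15 against 57, 43 and 23 under ISRIB and 0, 0 and 0 against 42, 20 and 39 in vehicle. Trim8, a ubiquitin ligase of cytokine signalling, had 22, 16 and 14 against 0, 0 and 0 under ISRIB and 6, 8 and 4 against 4, 6 and 6 in vehicle. Mir762, a microRNA symbol that overlaps Bcl7c by 76 bases, had 65, 225 and 71 against 29, 23 and 19 under ISRIB and 38, 63 and 58 against 33, 55 and 63 in vehicle. Gbp7, described above, had the highest adjusted p of the 5, 0.192. The interaction of Mir762 was also called without the first ISRIB M0 library, that of Gbp7 without the second, and those of Nisch, Mir762 and Gbp7 with no filter. For Nos2 the vehicle M1 libraries had 20, 12 and 38 counts and those of ISRIB M1 10, 30 and 24, with 0 in every M0 library, so the size of its interaction could not be estimated.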

How the data were processed

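The authors deposited whole-number counts per gene symbol for 12 libraries of polyadenylated RNA, made with a strand-specific TruSeq kit and sequenced on a NovaSeq instrument, per the labels' protocols. HTSeq, DESeq2, FastQC and build mm10 are named in the submitters' processing notes without role or version. The strand setting of the counting is not given in the sources used here. A second deposited table of normalized values was not used.

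The deposited counts entered edgeR 4.0.16 under R 4.3.3. Low counts were removed by filterByExpr (min.count 10, min.total.count 15), leaving 2356 symbols with 97.6% of the counts, and libraries were scaled by TMM. A mean per group was fitted to all 12 libraries with no block. Contrasts were tested with glmQLFTest and adjusted by Benjamini-Hochberg over the 2356 symbols at 0.05. The common biological coefficient of variation was 0.275. Standard errors follow from the log2 fold change and its test statistic. The script was tested on simulated data.

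A gene with no count in 1 group is given as a bound against a floor of 3 counts over the group of 3 libraries, TMM-scaled. With 1 to 3 counts in that group the ratio has an exact 95% interval, which covers counting error only, since the labels name no molecular identifiers. Overlaps were computed from exons in GENCODE M21 for GRCm38, the build that mm10 names, and promoters are RefSeq's for GRCm38.p6. Of the matched symbols 140 were matched through a synonym.

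Named are the 12 largest increases and decreases among genes averaging 50 counts or more, with groups that do not overlap, up to 6 called members per list and up to 4 called opposite-strand neighbours, the 5 lowest interaction p-values, the 10 most counted symbols and a set of M1 and stress genes. Some of these are given by counts only, and some genes are not reported here. The lists and members were chosen with earlier results of these data known. Alternatives were DESeq2 1.42.0 size factors and Wald test, upper-quartile scaling, limma-voom (limma 3.58.1), other filters, only the 6 ISRIB libraries, the replicate block, leave-one-out fits, a minimum change of 1 on the log2 scale, only symbols with no opposite-strand overlap and, added after the data were seen, library totals alone. Replicate pairs of a group differed by more than sampling noise (chi-square per degree of freedom 4.22 to 6.05), so no library was counted as a duplicate.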

Additional observations from a re-analysis of the deposited data

How the results depend on the processing

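The number of genes called between ISRIB M1 and ISRIB M0, 1055, was 1043 and 1044 with DESeq2 size factors and upper-quartile scaling, 1067 with the DESeq2 Wald test, 1082 with limma-voom, 984 with no filter on low counts, 934 with only the 6 ISRIB libraries and 1108 with library totals alone. Without 1 ISRIB library at a time it was 937 to 1002, or 35% to 37.7% of the genes tested in those fits. The fit with no filter tested 10978 genes and called 8.96% of them. With a mean of at least 50 counts, 836 genes were tested and 523 called (261 higher, 262 lower), and 11 lists in place of 19 had more members higher than lower. With only symbols free of opposite-strand overlap, 794 were tested and 337 called (214 higher, 123 lower). Both settings tested fewer genes than the main fit. Of the same 794 symbols, 359 were called in the main fit. With library totals alone 1 cytokine, 2 integrated stress response targets and 1 oxidative stress gene were called lower. With only the 6 ISRIB libraries the members called higher were 2 for Fc receptors, 3 for oxidative stress and 2 for adhesion.

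Over all tested genes, same-numbered libraries correlated by 0.0297 to 0.0493 in their deviations from the group means, none over 0.1. Over genes averaging 50 counts or more, the values were 0.0621, 0.119 and -0.00535. On the values over all genes the main fit took no pairing, although each number matched best with itself. The libraries of a replicate number have neighbouring library numbers (7 to 10, 19 to 22 and 25 to 28), and each run holds all 4 groups. The labels do not say whether libraries of a number were paired in the experiment, and the main p-values leave such a pairing out. With the replicate block 1026 genes were called, 1011 of them shared, and the interaction had 3 (4930539J05Rik, Basp1 and Mrpl48). The interaction had 9 genes with no filter and 0 to 4 in leave-one-out fits, 4 without the first and 1 without the second ISRIB M0 library. Of 170 called named genes, 32 lost their call under at least 1 alternative and 0 reversed, over 2473 recomputed values. These values leave out fits in which a gene was not tested and the fit with only symbols free of opposite-strand overlap. The causes were not tested. Of 845 list members 224 had enough counts to be tested, and the part of depth and of the strand counted in this was not tested.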
